A study of Mus musculus with 2 samples.

Results

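The genes described are the kinase Jak2, the transcription factors Stat3, Stat5a, Stat5b and Stat6, the feedback inhibitors Socs1, Socs2, Socs3 and Cish, and the STAT5 target Pim1. They were chosen by name, and every non-control probe whose transcript accession RefSeq (GRCm38.p6) assigns to one of them was taken, which gave 14 probes of 10 genes among 34565 probes of 23786 named genes. Probes carrying other kinds of identifier were not matched to a gene. RNA came from bone marrow-derived dendritic cells (BMDCs) of male C57BL/6J mice, by the labels, with 1 sample of genotype Egr1-deficient (its array is called the deficient-labelled array) and 1 of genotype WT. EGR1 is a zinc-finger transcription factor made early after many stimuli. For both genotypes, marrow of the femurs was grown in medium with 10 ng/ml GM-CSF and the cells were taken on day 6. Each sample was read on 1 one-colour Agilent array. The age of the mice, the number pooled and the kind of Egr1 allele are not given in the sources.

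GM-CSF, the cytokine these cells are grown in, acts through a receptor whose shared beta chain carries JAK2. JAK2 phosphorylates STAT5A and STAT5B, which enter the nucleus and switch on genes, among them Cish, Socs2 and Pim1. STAT3 answers mainly to IL-6 and IL-10 class cytokines and STAT6 to IL-4 and IL-13. CIS, which Cish encodes, and the SOCS proteins bind phosphorylated receptors or JAKs and shut the signal down. Because many SOCS genes are STAT targets, their RNA is often read as a trace of recent signalling.

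The promoters of the 3 SOCS family genes furthest apart between the arrays are printed to show which STAT and EGR letters they hold. They come from RefSeq's table for GRCm38.p6, read 5′ to 3′ along the gene's strand over the 250 bases before the annotated start. The motifs searched, on both strands, were TTCNNNGAA and TTCNNNNGAA for STAT factors and GCGNGGGCG for EGR factors. Capitals mark every match. Socs3 lies at chr11:117969367-117969616 (minus strand), Cish at chr9:107296409-107296658 (plus strand) and Socs1 at chr16:10785537-10785786 (minus strand).
Socs3: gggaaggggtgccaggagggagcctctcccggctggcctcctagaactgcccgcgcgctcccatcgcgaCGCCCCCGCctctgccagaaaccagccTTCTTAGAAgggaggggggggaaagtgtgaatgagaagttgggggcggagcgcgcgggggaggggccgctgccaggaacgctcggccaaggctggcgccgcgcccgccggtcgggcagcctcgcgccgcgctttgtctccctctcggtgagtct
Cish: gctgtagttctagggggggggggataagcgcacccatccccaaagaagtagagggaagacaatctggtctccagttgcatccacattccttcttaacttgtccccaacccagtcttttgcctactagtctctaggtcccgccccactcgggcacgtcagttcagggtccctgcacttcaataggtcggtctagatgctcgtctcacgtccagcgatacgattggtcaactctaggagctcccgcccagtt
Socs1: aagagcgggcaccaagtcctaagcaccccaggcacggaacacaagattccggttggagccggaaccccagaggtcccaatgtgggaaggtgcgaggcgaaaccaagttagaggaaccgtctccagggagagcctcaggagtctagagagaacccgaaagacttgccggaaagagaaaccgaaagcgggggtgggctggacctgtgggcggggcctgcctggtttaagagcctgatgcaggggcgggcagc

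The Socs3 window held 1 match to TTCNNNGAA, at bases -154 to -146 from the start, and 1 match to the EGR motif on the opposite strand, at bases -181 to -173. The matches do not overlap. Of 32851 promoter windows of the same length in the table, 7.02% held TTCNNNGAA, 5.85% TTCNNNNGAA and 4.70% the EGR motif. None of these letters were matched in the Cish and Socs1 windows or in the other windows of members that the table holds, 12 windows of 9 members in all. Socs2 has no entry. A match in these letters is a description of the sequence and not a measured binding site.

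Egr1 goes against the genotype labels: its only probe read 1212 on the deficient-labelled array and 380 on the WT array, 3.05-fold higher. Where that probe lies relative to the targeted part of the gene is not given, and a probe outside a deleted part checks nothing. Both samples are labelled male, yet Xist read 4559 and 3425, and of 7 probes of the Y-linked genes Ddx3y, Kdm5d, Uty and Eif2s3y only 1 was well above background on both arrays. Directions below follow the labels as given. The scanner program called 59.8% of 59305 non-control spots well above background on the deficient-labelled array and 55.2% on the WT array, and none saturated. With 1 array per label no difference has a replicate check and none was tested. The errors available are technical. The difference between the arrays had a median SD of 0.07 log2 units over the 10 spots of a repeated probe (205 probes), and of 0.17 between 2 probes of the same gene (3571 genes, with 0.60 as the 95th percentile).

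All 14 probes were well above background on both arrays, so each member could be compared. A gene's level is given as processed signal, a linear intensity, and its difference as log2 signal minus the array's 75th percentile, EGR1-deficient minus WT. The 5 kinase and STAT genes lay between -0.26 and 0.03, at most 1.20-fold apart. The 5 feedback and target genes spread more widely, from -0.84 for Socs3 to 0.62 for Cish.

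**Figure D1:**
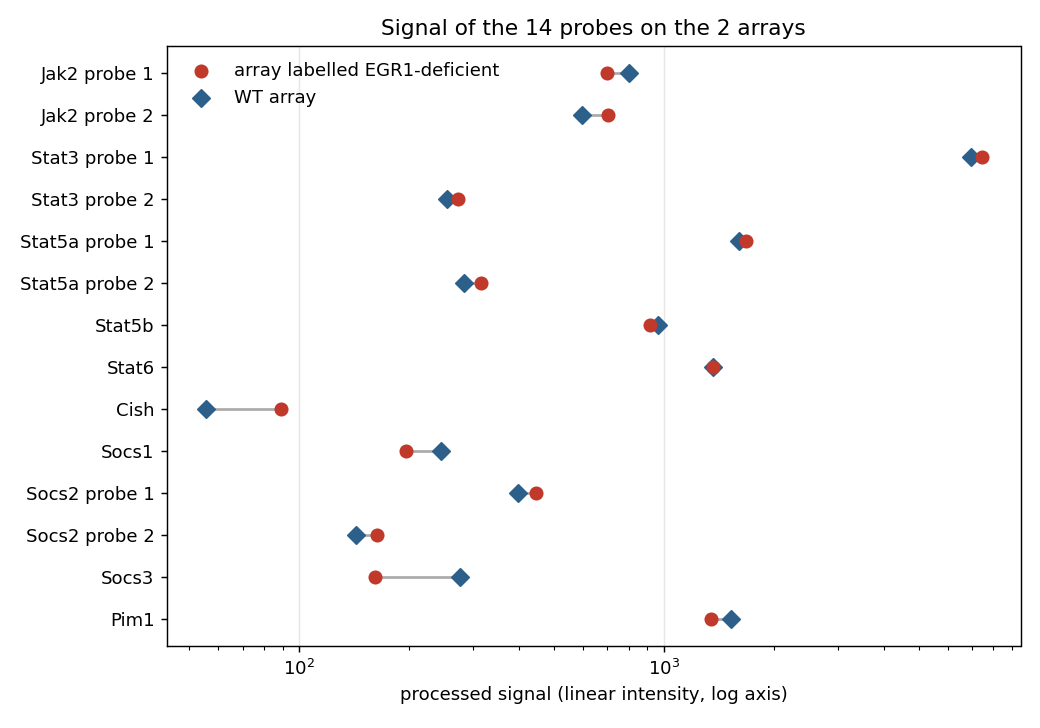
Processed signal (x axis, linear intensity on a log scale) of the 14 probes of the 10 genes (y axis), with 1 point for each array and a grey line joining them. The longest lines are those of Cish, 89.4 against 55.4, and Socs3, 161 against 276.

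Jak2, the kinase carried by the GM-CSF receptor, was measured by a pair of probes that went opposite ways. The brighter one, which stands for the gene, read 700 on the deficient-labelled array and 800.3 on the WT array (difference -0.26). The other read 703 and 595 (0.17). The gap of 0.43 between them is an SD of 0.31, above the median of 0.17 for probe pairs, and their mean was -0.04, so no direction can be given for Jak2.

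Stat5a and Stat5b encode the factors JAK2 activates in response to GM-CSF, and the genes are neighbours on chromosome 11, with Stat3 next in line. Stat5a read 1681 on the deficient-labelled array and 1603 on the WT array (difference 0.0018), and a second probe read 315 and 284 (0.09). Stat5b, with 1 probe, read 915 and 961 (-0.14). Stat5a lay within the SD of 0.11 between probes of genes at like signal, and Stat5b just beyond its SD of 0.13. Stat5a and Stat5b are close relatives in sequence, and since probe sequences were not used here, how far a probe of one also reads the other is not known.

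Stat3, which carries IL-6 and IL-10 signals, read 7434 and 6952 in its brighter probe and 272 and 254 in its other probe. Both probes gave the same difference, 0.03, although one was far brighter than the other. Stat6, on chromosome 10 and activated by IL-4, read 1364 and 1362 (-0.06). The RNA of these 4 STAT genes differed by less than the SD of 0.17 between probes over all genes. Array signal reports RNA only and holds nothing on STAT phosphorylation, the step at which this pathway is switched.

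Socs3, the inhibitor that binds the IL-6 receptor chain gp130, was the member furthest apart. Its probe read 161 on the deficient-labelled array, with a scanner error of 16.4, and 276 on the WT array, with a scanner error of 27.8. It was 1.79-fold lower on the deficient-labelled array, a difference of -0.84, against a median SD of 0.12 for repeated spots within 2-fold of its signal (9 probes) and 0.17 between probes of genes within 2-fold of it. Of 13725 genes well above background on both arrays, 210 (1.53%) had a difference as low or lower. Of 9 other processing settings 6, those of background and scaling, can move a gene that has 1 probe and passes every filter. Under these 6 it ran from -0.96 to -0.72 and stayed 1.5-fold or more lower. Some of the 6 only rescale each array, which shifts every gene alike. The -0.96, from median scaling, is such a shift and no separate check of Socs3. The -0.72 is from normexp, where an offset of 50 added to each signal narrows the differences of dim genes.

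Socs1, which blocks JAK kinase activity after interferon and IL-4, was the next lowest, at 196 on the deficient-labelled array and 244 on the WT array. Its difference of -0.38 is 1.30-fold lower, more than the SD of 0.16 between probes of genes at like signal, and 11.0% of all genes lay as low or lower. Pim1, a survival kinase and STAT5 target, read 1344 and 1528 (-0.25). Under the normexp setting, which starts from median spot signals instead of processed signals, Pim1 was at -0.05. Its median signals were already close before correction, 1421 on the deficient-labelled array and 1412 on the WT array. Both genes, with 1 probe each, were on the lower side under the 6 settings that can move them.

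Cish, a classical STAT5 target whose product masks STAT5 docking sites on receptors, went the other way. It read 89.4 on the deficient-labelled array, with a scanner error of 9.53, and 55.4 on the WT array, with a scanner error of 6.88. It was 1.54-fold higher, a difference of 0.62, and 2.94% of all genes lay as high or higher. Cish was the dimmest member, and at its signal the SDs were wider, 0.20 over repeated spots (6 probes) and 0.23 between probes. Under the 6 settings that can move it Cish was above 0, between 0.42 with normexp and 0.74 with the authors' series table. It was 1.5-fold or more higher under 2 of them and less than that under 4. The normexp setting adds 50 to each corrected signal, which by construction narrows the difference of a gene as dim as Cish.

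Socs2, the inhibitor of growth hormone signalling and also a STAT5 target, was slightly higher in both of its probes. These read 446 against 399 (0.10) and 164 against 143 (0.13), each within the SD of 0.17 between probes. The STAT5 targets Cish, Socs2 and Pim1 thus lay at 0.62, 0.10 and -0.25, with no shared direction. The gap between Cish and Socs3 was 1.46 log2 units, 2.76-fold. It joins the highest and the lowest of the 10 members. Scaling each array by a constant leaves it as it is by construction. The gap was 1.13 with normexp, 1.41 with quantile normalization and 1.38 with cyclic loess. The offset added in normexp narrows the differences of dim genes by construction.

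**Figure D2:**
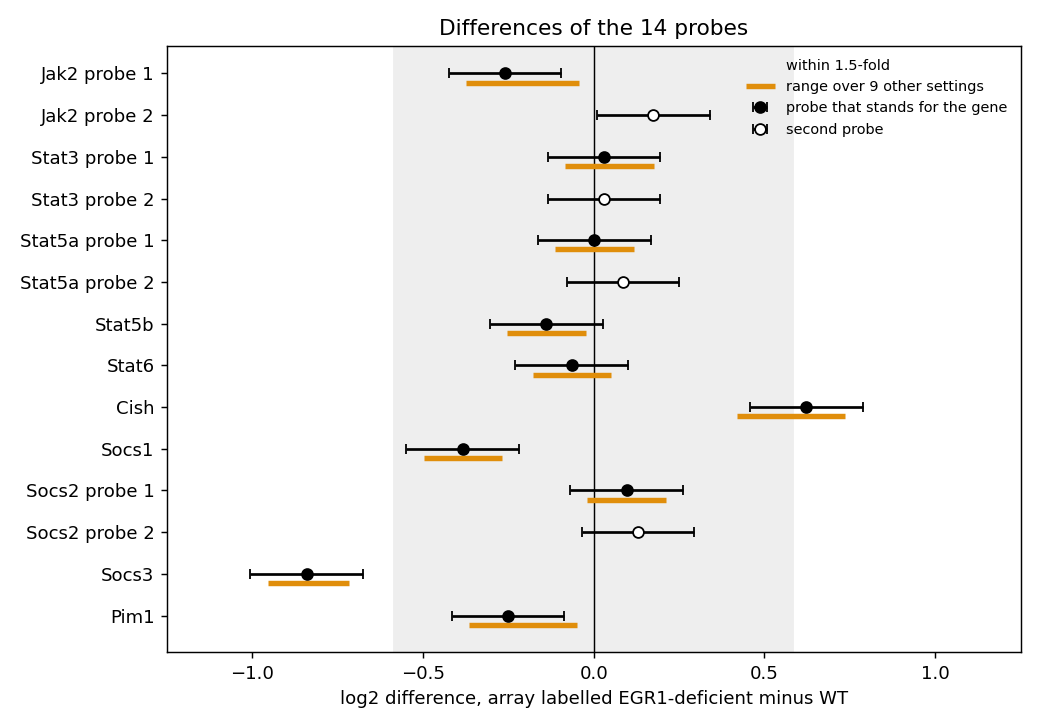
Log2 difference, EGR1-deficient minus WT (x axis), of each of the 14 probes (y axis). Filled points stand for the gene, open points are second probes, bars are 0.17 log2 units to each side (the median SD for a gene's 2 probes), orange lines the range over 9 other settings and grey shading 1.5-fold. Socs3 and Cish lie outside the shading on opposite sides, although the orange line of Cish reaches into it.

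No member was 2-fold apart, where 0.707% of the 13725 genes were 2-fold or more higher on the deficient-labelled array and 1.01% 2-fold or more lower. At 1.5-fold, 1 of 10 members was higher (Cish) and 1 lower (Socs3), beside 3.51% and 4.17% of all genes. That background depends on the processing. It became 2.10% higher and 7.21% lower with median scaling, and 5.08% and 1.87% with the authors' series table. With normexp it was 0.495% and 0.947%. Below 0 were 6 of 10 members, 60.0%, against 57.4% of all genes, and the median difference was -0.10 against -0.05. These shares are near the background. The 6 members include Jak2, counted by its brighter probe, and Stat6, whose sign differed among the processing settings.

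**Figure D3:**
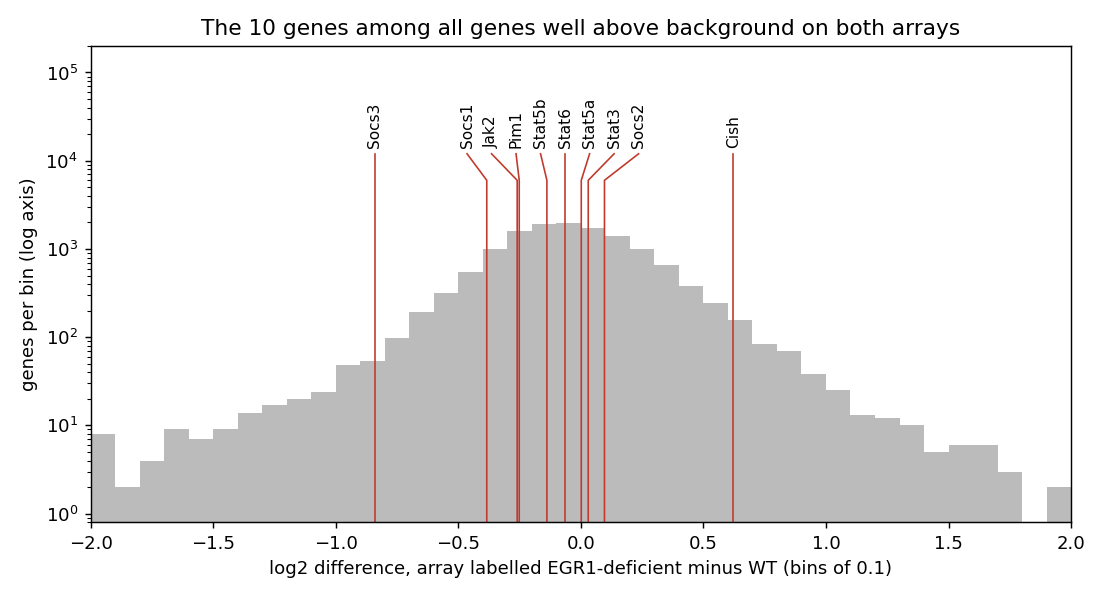
Number of genes (y axis, log scale) in bins of 0.1 log2 units of the difference, EGR1-deficient minus WT (x axis), for the 13725 genes well above background on both arrays, with 39 genes beyond 2 log2 units not drawn. Red lines mark the 10 genes, of which Socs3, at -0.84, and Cish, at 0.62, lie furthest out, on opposite flanks.

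The JAK, SOCS and PIM families hold further genes, to be read beside the 57.4% of all genes below 0. Of 4 JAK genes 3 were below 0, Jak2 by its brighter probe, and the lowest was Jak1, the kinase of interferon and gp130 receptors, which read 622 against 873 (-0.56, 1.47-fold lower). Of the 8 SOCS family genes 4 were below 0 and 4 above, with a median of 0.03. Beyond Socs3, Cish and Socs1, the furthest was Socs5, at 110 against 85.2 (0.30). Pim2 was well above background on neither array, and Pim3 differed by -0.05.

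The chains of the GM-CSF receptor family upstream of JAK2 were within 1.5-fold. Csf2ra, the GM-CSF binding chain, read 3225 against 3594 (-0.22), and Csf2rb, the shared beta chain, 8169 against 9260 (-0.25, other probes -0.13 and 0.04). Of 25 measured chains of other JAK-coupled receptors, 3 were 1.5-fold or more lower and none higher, beside 4.17% and 3.51% of all genes. Among these 3 chains were the IL-2 receptor beta chain Il2rb (28.3 against 56.5, -1.06) and the LIF receptor Lifr (44.3 against 64.4, -0.61), both dim. Lepr, the leptin receptor, was well above background only on the deficient-labelled array, at 33.2 against 16.3. The WT reading is about the lowest signal called well above background there. Its 1.94-fold is therefore the observed ratio, not a minimum.

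Most JAK-STAT ligands were at or near background. Of 23 ligand genes 11 were well above background on neither array, as were 8380 of all 23786 named genes. Among the 11 were Csf2 (GM-CSF itself), Il3, Il4 and Il5. Il6, a STAT3-activating cytokine, was the lowest of the 9 measured on both arrays, at 252 against 418 (-0.80, another probe -0.58). Thpo, thrombopoietin, was the highest, at 59.1 against 33.2 (0.76), and also dim. By its readings Il10 was at least 1.30-fold higher on the deficient-labelled array and Ifnb1, interferon beta, at least 1.63-fold lower. Both bounds rest on dim readings, 22.2 for Il10 on the deficient-labelled array and 20.8 for Ifnb1 on the WT array. They count no technical error. Lif was well above background on the deficient-labelled array alone, with no bound above 1. Among 14 phosphatases, ligases and adaptors that restrain the pathway none was 1.5-fold apart, beside 3.51% of all genes higher and 4.17% lower. The furthest were the adaptor Sh2b3 (-0.50, other probes -0.30 to 0.04) and the SUMO ligase Pias1 (0.40, another probe -0.17).

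Genes often cited as STAT targets were listed by factor. The lists share genes such as Ccnd1, and no test compares them. Among all genes 57.4% were below 0, with 4.17% at 1.5-fold or more lower and 3.51% higher. Of 16 for STAT5, 7 were below 0 and the median was 0.03. Igf1, insulin-like growth factor 1, was the one past 1.5-fold, at 2463 against 3714 (-0.66), and cyclin D1, Ccnd1, stood highest at 267 against 176 (0.53). Of 17 for STAT3, 9 were below 0, the median was -0.05 and none was past 1.5-fold, the furthest being Ccnd1 and Batf (91.8 against 125, -0.52). Of 18 for STAT6, 12 were below 0 and the median was -0.35, with 6 at 1.5-fold or more lower and none higher. These 6 were Retnla (-3.34), Arg1 (-1.36), Ccl24 (-1.30), Chil3 (-0.86), the transglutaminase Tgm2 (-0.82) and Egr2 (-0.65). All of these except Tgm2 were already known to be lower when the list was written, so its count is not independent evidence. Stat6 itself, at -0.06, did not differ with them.

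**Figure D4:**
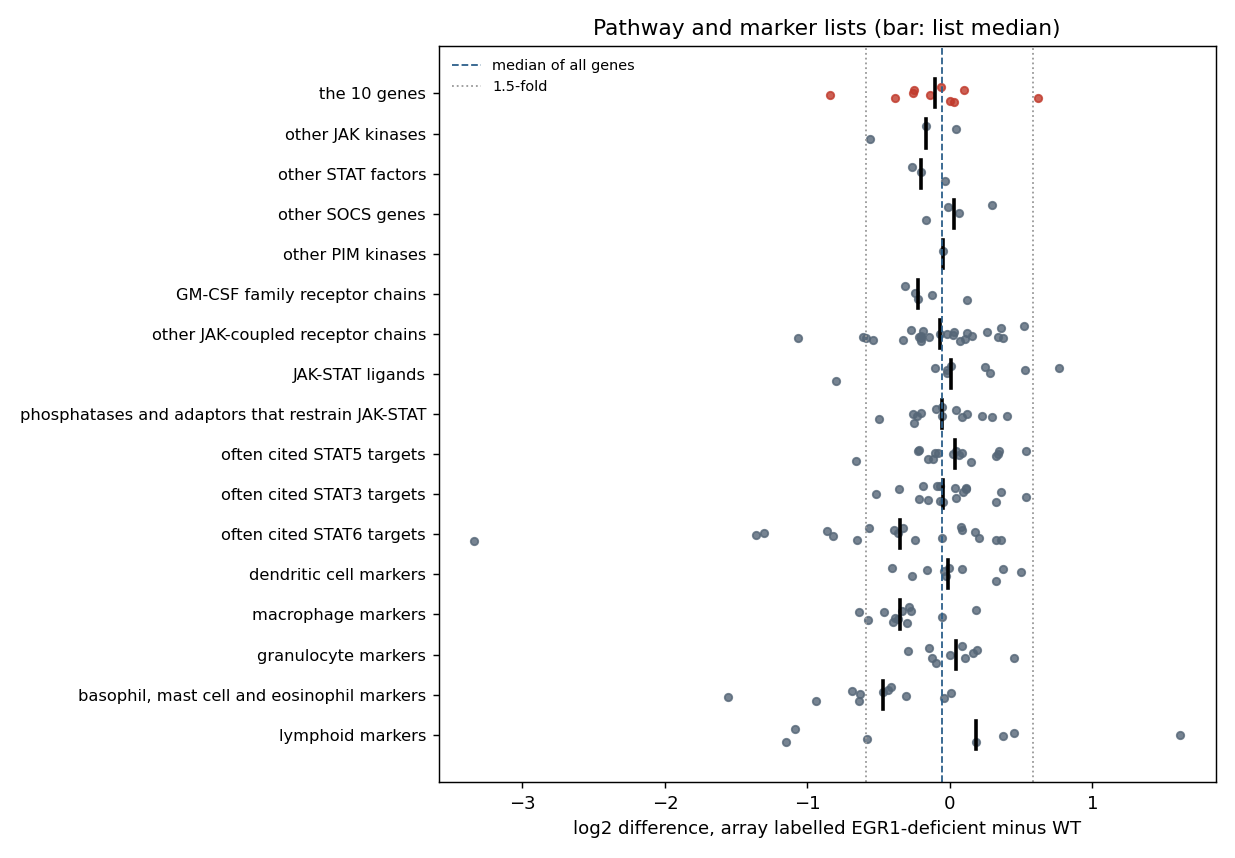
Log2 difference, EGR1-deficient minus WT (x axis), of each gene well above background on both arrays, by list (y axis), with bars at list medians, a dashed line at the median of all genes, -0.05, and dotted lines at 1.5-fold. The 10 genes are red, and the lists furthest to the left are the STAT6 targets (median -0.35), macrophage markers (-0.35) and basophil, mast cell and eosinophil markers (-0.47). Lists were chosen with earlier results of these data known.

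The cultures held markers of several cell types. The marker lists too were chosen with earlier results of these data known, so their counts are not independent evidence. For comparison, 57.4% of all genes were below 0 and their median was -0.05. Of 12 dendritic cell markers 10 were well above background on both arrays (median -0.02), and Clec9a and Xcr1, which mark a cross-presenting subset, were not on either. Of 12 macrophage markers 11 were below 0, with a median of -0.35. Their summed signal was 78889 on the deficient-labelled array and 96467 on the WT array. In the list for basophils, mast cells and eosinophils, 10 of 11 measured genes were below 0 (median -0.47, summed signal 5349 against 7610), and Fcer1a was not well above background. Granulocyte markers were all measured, with 4 of 10 below 0 and a median of 0.05 (68163 against 61223). Lymphoid markers went both ways, 3 of 7 below 0 (874 against 591). In bulk RNA, fewer cells of a type and less RNA per cell cannot be told apart, and the part of cell makeup in the Socs3, Socs1 and Cish differences was not tested.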

How the data were processed

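Spot intensities were taken from the scanner files the authors deposited, made with Agilent Feature Extraction 12.1.0.3 per the file headers (the submitters' processing notes name 11.5.1.1). The authors' series table holds the same intensities times 6.18 (deficient-labelled array) and 5.97 (WT). The headers place the negative controls of the deficient-labelled array outside their accepted range.

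Spots marked as outliers (77 and 79) were dropped, log2 signal was scaled to the 75th percentile of non-control spots (191.6 and 183.0), and spots of a probe were averaged. A gene is its probe of highest mean signal, named through its RefSeq accession. An at-least fold is taken against the higher of the dim array's lowest well-above-background signal (13.3 and 16.3) and the gene's own reading there. Alternatives used limma 3.58.1 in R 4.3.3, with normexp (offset 50) on median signals, since the planned mean signal is not in the files. Counting steps were tested on simulated data. With 1 array per label, array number limits the precision.

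Members and lists were chosen with earlier results of these data known. All members are named, with list genes past 1.5-fold and up to 3 further ones per list, except a few list genes that are not reported here. Egr1, Xist, the Y-linked genes and the genes named as near background are outside that rule, and the last were chosen after their values were seen.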

Additional observations from a re-analysis of the deposited data

How the results depend on the processing

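The 9 other settings gave 144 values, of which 38 could not move, since all members pass both other filters and the mean of probes leaves a gene with 1 probe as it was. Of the other 106 values 99 stayed within the SD between probes of a gene (0.17) or, for counts, within 1.5-fold, and no gene past 1.5-fold changed sign. Part of this held by construction. Median scaling, scaling to spots above background on both arrays and the authors' series table each shift every member by the same amount. Each shift is smaller than 0.17, so under these settings the members' differences and their median could not leave that SD. Nor could a gene past 1.5-fold change sign there. For those values the 99 is no check of robustness. The count of members 1.5-fold or more higher went from 1 to 0 with normexp, median scaling, quantile and cyclic loess normalization. Cish was then at 0.419, 0.507, 0.579 and 0.548, below the threshold of 0.585. The share of all genes 1.5-fold or more higher fell as well, from 3.51% to 0.495%, 2.10%, 2.78% and 2.49% in that order. Cish and Pim1 under normexp, and Jak2 with the mean of its probes, moved by more than that SD. The offset added in normexp narrows the difference of a dim gene such as Cish by construction. Median scaling shifted the median of all genes by -0.11 and put 9 of 10 members and 71.6% of all genes below 0, including Stat3 (-0.08), Stat5a (-0.11) and Socs2 (-0.02). The authors' series table shifted it by 0.12 and put 5 members and 40.2% of all genes below 0. Signs of Stat3, Stat5a, Stat6 and Socs2 differed among the settings, those of Socs3, Socs1, Cish, Stat5b and Pim1 did not change under the 6 settings that could move them, and that of Jak2 changes with the probe. No paired analysis was possible because each label has 1 array.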
